A study of Mus musculus with 6 samples.

Results

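The insulin-like growth factor (IGF) system was followed here through 10 genes, chosen by name, out of 41388 genes counted in each library. The members were the ligands *Igf1* and *Igf2*, the receptors *Igf1r* and *Igf2r*, and the binding protein genes *Igfbp2*, *Igfbp3*, *Igfbp4*, *Igfbp5*, *Igfbp6* and *Igfbp7*, and each was found once among the Ensembl identifiers of the files. RNA-seq had been performed on primary chondrocytes from femoral head cartilage of male mice aged 21 days, with 3 periostin knockout (*Postn*-/-) and 3 wild-type (*wt*) samples, to compare the genotypes at baseline. The knockout carried the homozygous Postn tm1Jmol allele in every cell of the animal, and both genotypes were on a mixed B6/129 background and came from the same breeding. The cells were untreated, were grown for 2 days in medium with fetal bovine serum, and were sequenced as bulk RNA. In such samples fewer cells of a type and less RNA per cell cannot be told apart.

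IGF1 and IGF2 are secreted growth factors that signal through the tyrosine kinase receptor encoded by *Igf1r*, while the receptor encoded by *Igf2r* carries IGF2 to lysosomes and does not signal through a kinase. The binding proteins hold the ligands outside the cell, where proteases can release them. In cartilage, IGF signalling is known for promoting the growth of long bones and the synthesis of proteoglycan and collagen by chondrocytes.

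The libraries held between 20587640 and 26572260 counted reads, at which 3 reads correspond to 0.113 to 0.146 CPM (counts scaled to the library total). Here and below, gene levels in CPM are normalized by trimmed mean of M-values (TMM), while the filter on low counts used CPM before TMM. *Postn* itself was at 4.27 to 5.67 CPM in *Postn*-/- and 6.90 to 10.3 in *wt*, so its transcript was lower in every knockout library but not at 0. All 12 chondrocyte markers, among them *Col2a1*, *Acan* and *Sox9*, passed the filter on low counts, and *Col2a1* ranged from 8271 to 18080 CPM. On the first principal component, which held 31.9% of the variance, *wt* replicate 1 lay at 47.7 and the other 5 samples between −17.4 and −0.02, so results that rest on it are also given without it.

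Ligand, receptor and binding protein transcripts were measured in both genotypes. Levels between genes are given as TMM-normalized CPM per kilobase of exon length. *Igf2*, the fetal growth factor expressed from the paternal allele, had a mean of 33.1 CPM per kilobase over the 6 samples, above 87.4% of the 14533 tested genes. This was the highest of the members, but it rested on *Postn*-/- replicate 3: without that sample *Igf2* was at 28.5 and *Igfbp6* at 28.95, a check made after the values were seen, and *Igf2* exceeded *Igfbp6* in 3 of the 6 samples. *Igfbp6* at 27.6, *Igfbp7* at 21.3, *Igfbp5* at 21.1, *Igf2r* at 16.6 and *Igfbp4* at 15.8 followed, and each of these neighbours in the order overlapped with the next over the samples. *Igf1r* came next at 6.16 CPM per kilobase and overlapped with *Igfbp4* in range, although it was below *Igfbp4* in all 6 samples. *Igf1* at 0.733 CPM per kilobase stood below *Igf1r* and above *Igfbp2* with no overlap. *Igfbp2* at 0.193 and *Igfbp3* at 0.0695 were the lowest and overlapped. The exon models behind these lengths are those of the files. For *Igf1r* the model holds 4489 bases and ends at position 68226780 of chromosome 7, whereas a later annotation (GENCODE M21) ends it at 68233668, so reads from that last stretch were not counted.

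**Figure D1:**
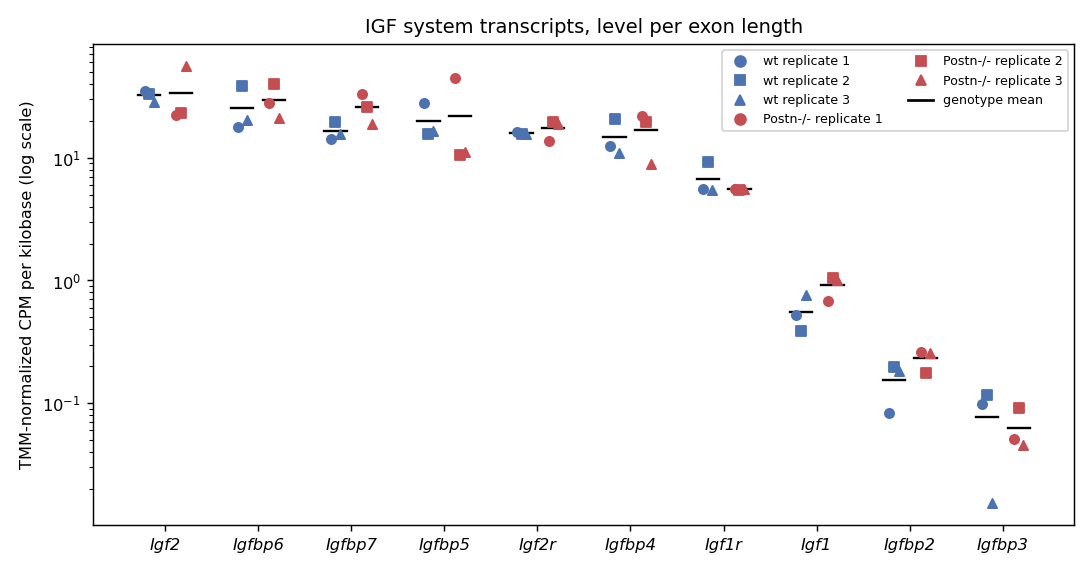
TMM-normalized CPM per kilobase of exon length on a log axis for the 10 members, in order of their mean, with 1 point for each mouse (blue *wt*, red *Postn*-/-, marker shape for the replicate number) and a line for the genotype mean. *Igf2* has a mean of 33.1 and *Igfbp6* one of 27.6, with overlapping points, *Igf1* lies at 0.733, and *Igfbp2* and *Igfbp3* lie lowest.

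Of the ligands, *Igf1* was higher in *Postn*-/- chondrocytes at an unadjusted threshold and *Igf2* was not. *Igf1*, whose product mediates much of the postnatal action of growth hormone, lies on chromosome 10 (GRCm38, 87858265 to 87937042, plus strand). It was at 6.71, 10.3 and 10.1 CPM in *Postn*-/- replicates 1, 2 and 3 and at 5.15, 3.80 and 7.57 CPM in *wt* replicates 1, 2 and 3. The genotypes overlapped in 1 pair of samples, since *Postn*-/- replicate 1 lay below *wt* replicate 3. Mean *Igf1* was 9.02 ± 2.00 CPM in the knockout against 5.51 ± 1.91 CPM in *wt* (SD, n = 3 for both). The log2 fold change, *Postn*-/- over *wt*, was 0.71 with a 95% interval of 0.04 to 1.38 and a standard error of 0.29. The edgeR quasi-likelihood test gave an unadjusted p = 0.0402 and, by Benjamini-Hochberg over all tested genes, an adjusted p = 0.717. These values rest on 84 to 253 reads for each library. Without *wt* replicate 1 the log2 fold change of *Igf1* was 0.67 (unadjusted p = 0.0897 in the same edgeR test). It also passed the threshold no longer without *Postn*-/- replicate 2, without *Postn*-/- replicate 3 or without *wt* replicate 2, where the edgeR p was 0.111, 0.112 and 0.110.

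*Igf2* (chromosome 7, 142650766 to 142666816, minus strand) was at 127, 132 and 322 CPM in *Postn*-/- replicates 1, 2 and 3 and at 202, 191 and 165 CPM in the *wt* replicates. In *Postn*-/-, replicates 1 and 2 lay below every *wt* sample and replicate 3 lay above every *wt* sample. The log2 fold change was 0.06 with a 95% interval of −0.73 to 0.85 (unadjusted p = 0.867, edgeR), and its sign turned without *Postn*-/- replicate 3 or *wt* replicate 3. Without the former the log2 fold change of *Igf2* was −0.52 (unadjusted p = 0.00674 and adjusted p = 0.983, edgeR) and without the latter −0.022. *Igf2* made up 95.7% to 98.9% of the summed ligand level per kilobase across the samples. Of the exon bases of *Igf2*, 98 (1.71%) overlap exons of the antisense gene *Igf2os*, whose own level was at most 0.477 CPM. In the later annotation 81.7% of the *Igf2* transcript bases also occur in *Igf2os* or in the overlapping gene *Gm49394*, which is not among the genes counted in the files used here. The library kit does not mark strand, so reads from the exon bases shared with *Igf2os* cannot be assigned to either gene. Reads from bases shared only with *Gm49394* were counted as *Igf2* in the files, and any that came from *Gm49394* cannot be told apart.

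Neither receptor passed the unadjusted threshold. *Igf1r* (chromosome 7, 67952859 to 68226780, plus strand) measured 25.0, 24.5 and 25.1 CPM in *Postn*-/- against 24.95, 41.6 and 24.6 CPM in *wt*. All samples but *wt* replicate 2 lay within 24.5 to 25.1 CPM. The log2 fold change was −0.29 with a 95% interval of −0.77 to 0.19 (unadjusted p = 0.203, edgeR), and without *wt* replicate 2 it was 0.0051. *Igf2r* (chromosome 17, 12682406 to 12769664, minus strand), expressed from the maternal allele in mice, was at 131, 185 and 179 CPM in *Postn*-/- against 153, 148 and 147 CPM in *wt*. The *wt* samples lay close together, with *Postn*-/- replicate 1 below them and replicates 2 and 3 above. For *Igf2r* the log2 fold change was 0.14 with a 95% interval of −0.19 to 0.47 (unadjusted p = 0.348, edgeR), and without *Postn*-/- replicate 1 it was 0.29 (unadjusted p = 0.0322, adjusted p = 0.772, edgeR).

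Among the binding proteins, *Igfbp7* was higher in *Postn*-/- at the unadjusted threshold. Its product is a secreted protein related to the other IGF binding proteins that binds IGFs with lower affinity and also binds insulin. *Igfbp7* (chromosome 5, 77349240 to 77408045, minus strand) was at 40.1, 31.8 and 23.0 CPM in *Postn*-/- replicates 1, 2 and 3 and at 17.3, 23.8 and 18.98 CPM in the *wt* replicates. The genotypes overlapped in 1 pair of samples, *Postn*-/- replicate 3 and *wt* replicate 2. Mean *Igfbp7* was 31.7 ± 8.56 CPM in the knockout against 20.0 ± 3.41 CPM in *wt* (SD, n = 3 for both). *Igfbp7* had a log2 fold change of 0.66 with a 95% interval of 0.16 to 1.17 and a standard error of 0.22, with edgeR's unadjusted p = 0.0165 and adjusted p = 0.717. It was 0.45 without *Postn*-/- replicate 1 and 0.62 without *wt* replicate 3, where the edgeR p of 0.0653 and 0.0554 no longer passed. The last 85 exon bases of *Igfbp7* (7.01%) overlap the end of *Polr2b* on the opposite strand, so reads there cannot be assigned either.

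*Igfbp4*, whose product holds back IGF action until it is cleaved by the protease encoded by *Pappa*, was at 97.6, 86.0 and 39.6 CPM in *Postn*-/- against 54.8, 92.4 and 48.0 CPM in *wt*. *Igfbp6*, whose product prefers IGF2 over IGF1, was at 30.9, 44.4 and 23.5 CPM in *Postn*-/- against 19.8, 43.2 and 22.7 CPM in *wt*. For both genes the range of one genotype lay largely within that of the other. *Igfbp4* (chromosome 11, 99041244 to 99054392, plus strand) had a log2 fold change of 0.19 with a 95% interval of −0.63 to 1.02, and *Igfbp6* (chromosome 15, 102144362 to 102149511, plus strand) had one of 0.20 with an interval of −0.56 to 0.97. In edgeR's test the unadjusted p was 0.601 for *Igfbp4* and 0.555 for *Igfbp6*. Without *wt* replicate 2 the log2 fold change of *Igfbp6* was 0.63 (unadjusted p = 0.0460 and adjusted p = 0.568, edgeR).

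*Igfbp5*, whose product binds to extracellular matrix as well as to IGFs, varied most of the 8 tested members over the 6 samples. It lies on chromosome 1 (72857932 to 72874884, minus strand), with *Igfbp2* as its neighbour on the other strand (72824503 to 72852474). *Igfbp5* was at 269, 63.5 and 66.5 CPM in *Postn*-/- against 168, 94.3 and 99.1 CPM in *wt*. *Postn*-/- replicate 1 was the highest of all samples, and *Postn*-/- replicates 2 and 3 were the lowest. For *Igfbp5* the log2 fold change was 0.14 with a 95% interval of −1.13 to 1.41 (unadjusted p = 0.804, edgeR). Without *Postn*-/- replicate 1 it was −0.89 (unadjusted p = 0.0126 and adjusted p = 0.772, edgeR), and without *wt* replicate 2 it was −0.0078.

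*Igfbp2* and *Igfbp3* (chromosome 11, 7206086 to 7213923, minus strand) did not pass the filter of more than 1 CPM in at least 2 samples. *Igfbp2* was counted with 12, 8 and 10 reads in *Postn*-/- and with 4, 8 and 7 reads in *wt*. *Igfbp3*, which encodes the main IGF carrier of serum, was counted with 4, 7 and 3 reads in *Postn*-/- and with 8, 8 and 1 reads in *wt*. Several of these counts lie at or near 3 reads, so no fold change is given. Without the filter neither passed in edgeR (unadjusted p = 0.272 for *Igfbp2* and 0.638 for *Igfbp3*).

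**Figure D2:**
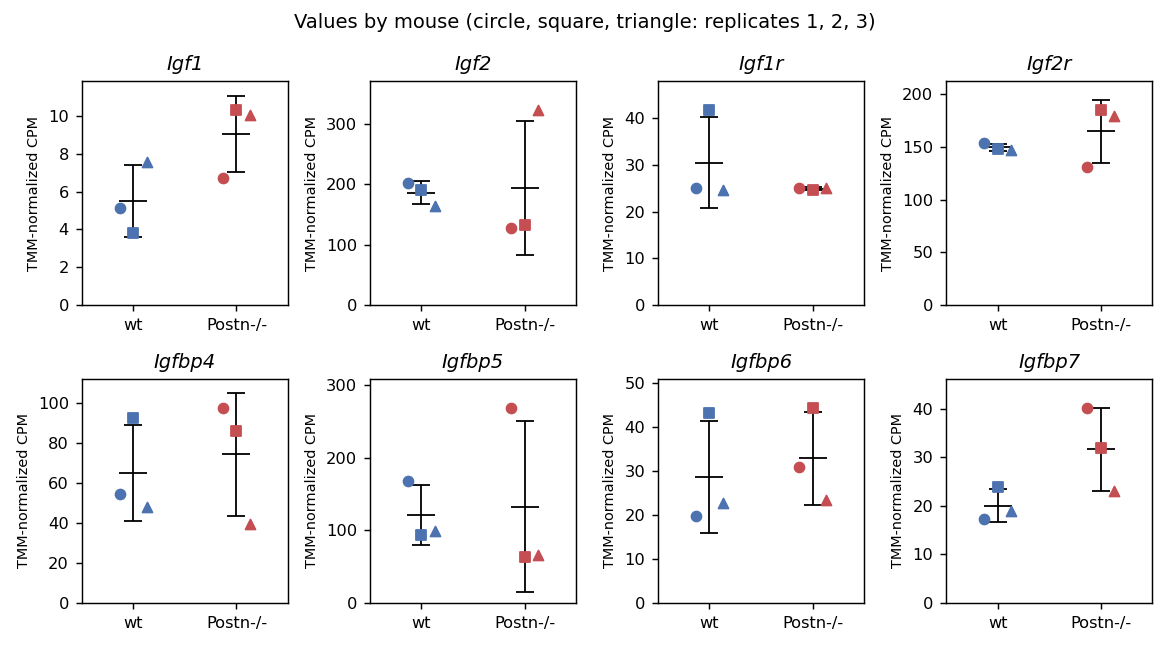
TMM-normalized CPM of the 8 tested members in the 3 *wt* and 3 *Postn*-/- samples (circle, square and triangle for replicates 1, 2 and 3), with the genotype mean and SD; each axis starts at 0. *Igf1* and *Igfbp7* each overlap in 1 pair of samples, *Igf2* is high in *Postn*-/- replicate 3 and *Igfbp5* in *Postn*-/- replicate 1.

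Of the 10 members 8 were tested, and 2 of these, *Igf1* and *Igfbp7*, passed the unadjusted threshold of 0.05 with edgeR, both higher in *Postn*-/-. Over all 14533 tested genes 6.30% had such a p, 3.95% higher and 2.35% lower in *Postn*-/-. The members' count is above that share but rests on 2 genes, and both adjusted p-values are 0.717. None of the 8 members passed an adjusted p of 0.05 in edgeR's test (0 of 8, lowest adjusted p = 0.717), nor did any with DESeq2 or with limma's voomWithQualityWeights, and 0.0138% of all genes passed in edgeR. For 0 of the 8 members did all *Postn*-/- samples lie apart from all *wt* samples, which held for 13.6% of all tested genes, 7.03% higher and 6.57% lower in *Postn*-/-. Positive log2 fold changes were found for 7 of the 8 members with a median of 0.17, and for 50.8% of all tested genes with a median of 0.0042. *Igf1r* was the member with a negative value. Without *wt* replicate 1, which stood apart on the first component, 1 member, *Igfbp7*, passed at the unadjusted threshold. Its log2 fold change was then 0.56, with an unadjusted p of 0.0499 just at the threshold and an adjusted p of 0.833 (edgeR).

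The RefSeq sequence of the 250 bases before the transcript start (GRCm38.p6) was examined for all 10 members, and those of *Igf1* and *Igfbp7* are shown because both were higher in *Postn*-/- at the unadjusted threshold. They lie at chr10:87860861-87861110 (plus strand) and chr5:77408046-77408295 (minus strand), are written 5′ to 3′, and capitals mark CG dinucleotides.
*Igf1*: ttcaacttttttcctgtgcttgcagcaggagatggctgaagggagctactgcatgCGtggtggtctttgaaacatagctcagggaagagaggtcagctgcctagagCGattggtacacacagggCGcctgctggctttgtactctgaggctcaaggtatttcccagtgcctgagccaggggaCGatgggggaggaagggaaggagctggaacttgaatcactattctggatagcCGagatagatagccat
*Igfbp7*: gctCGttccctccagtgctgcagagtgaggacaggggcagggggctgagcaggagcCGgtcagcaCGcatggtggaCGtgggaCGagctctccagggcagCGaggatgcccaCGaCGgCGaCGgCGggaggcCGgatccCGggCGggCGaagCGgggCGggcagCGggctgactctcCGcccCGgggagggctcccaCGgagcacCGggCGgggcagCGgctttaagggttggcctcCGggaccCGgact
The *Igf1* stretch held 5 CG dinucleotides at 52.8% G and C, and the *Igfbp7* stretch 26 at 74.0%, against a median of 6 and 52.4% over 32851 RefSeq promoters of the same length. Searched on both strands, GGGCGG was found 4 times in the *Igfbp7* stretch and was not in that of *Igf1*, while 32.7% of all such promoters hold it. The window lies before the RefSeq start of *Igf1*, which is downstream of the start that the files give. TATAAA, which 12.4% of all such promoters hold, was in neither. Among the other members, TATAAA was found 28 bases before the start of *Igfbp4* and 148 bases before that of *Igfbp6*. GGGCGG was also found in windows of *Igf2*, *Igf1r*, *Igf2r* and *Igfbp2*. These matches describe the letters of the windows and were not tied to any measurement here.

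The members differed widely in how much they varied between mice of one genotype. The pooled within-genotype SD of log2 CPM was 0.90 for *Igfbp5*, 0.61 for *Igfbp4*, 0.55 for *Igf2* and 0.53 for *Igfbp6*. For genes within 0.5 log2 CPM of the same mean level the median SD was 0.14 beside *Igfbp5* and *Igf2*, 0.15 beside *Igfbp4* and 0.17 beside *Igfbp6*. *Igfbp5* was above 99.3% of such genes, *Igfbp4* above 97.9%, *Igf2* above 96.6% and *Igfbp6* above 94.9%. *Igfbp7* had an SD of 0.33, *Igf1* of 0.42, *Igf1r* of 0.30 and *Igf2r* of 0.20, all between the 75th and 84.5th percentile of genes of like level. The highest *Postn*-/- sample exceeded the lowest 4.23-fold for *Igfbp5* and 1.02-fold for *Igf1r*, while among *wt* samples these ratios were 1.78 and 1.69. Among *wt* samples alone the ratio was higher for *Igfbp6* at 2.18, *Igf1* at 1.99 and *Igfbp4* at 1.93 than for *Igfbp5*.

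Summed over the 6 genes, binding protein transcripts were at 128, 96.4 and 60.4 CPM per kilobase in *Postn*-/- replicates 1, 2 and 3 and at 72.7, 95.5 and 63.6 in *wt*. The genotypes overlapped in this sum. Divided by the summed ligand level, it was 5.61, 4.003 and 1.05 in *Postn*-/- and 2.03, 2.83 and 2.15 in *wt*, so the *Postn*-/- mice lay on both sides of the *wt* mice. *Igfbp7* made up 25.9%, 27.2% and 31.4% of the binding protein sum in *Postn*-/- and 19.6%, 20.6% and 24.6% in *wt*. The genotypes did not overlap for this share, 1 of the 6 shares, beside 13.6% of all tested genes for CPM, and for CPM *Igfbp7* itself overlapped. *Igfbp5* made up 35.0%, 10.97% and 18.3% in *Postn*-/- and 38.6%, 16.4% and 25.95% in *wt*. *Igfbp6* ran from 21.7% to 41.4% and *Igfbp4* from 14.8% to 21.9% over all samples, and *Igfbp2* and *Igfbp3* each stayed below 0.5%. Shares of a sum depend on each other, and no test was made on them.

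**Figure D3:**
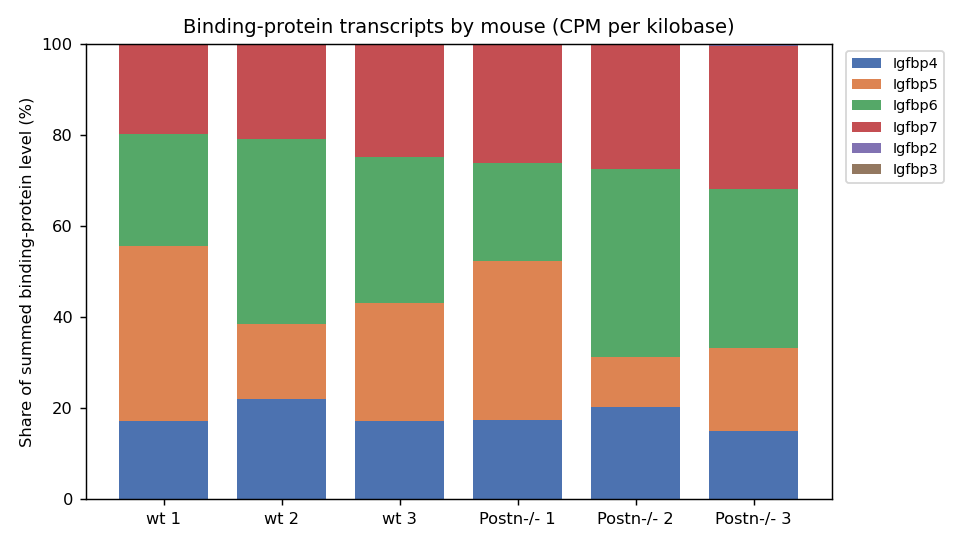
Share of each binding protein gene in the summed binding protein level (CPM per kilobase, %) in the 3 *wt* and 3 *Postn*-/- samples, 1 stacked bar for each mouse. The *Igfbp7* segment runs from 25.9% to 31.4% in *Postn*-/- and from 19.6% to 24.6% in *wt*, and the *Igfbp5* segment is largest in replicate 1 of both genotypes.

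Around the members, 48 further genes of the IGF system were described as 3 lists set by role, of which 43 were tested. With edgeR 3 of the 43 passed the unadjusted threshold, 2 higher and 1 lower in *Postn*-/-, against 6.30% of all genes, and 0 passed after adjustment. The median log2 fold change of the 43 genes was 0.02. The higher genes were *Shc1*, an adaptor that links the receptor to Ras and MAP kinase signalling, and *Pik3r2*, a regulatory subunit of phosphoinositide 3-kinase. The lower gene was *Grb10*, an imprinted adaptor that restrains signalling by the IGF1 and insulin receptors. All 3 belonged to the 30 adaptor and PI3K-AKT-mTOR genes, of which 29 were tested.

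*Shc1* was at 80.8, 67.7 and 73.0 CPM in *Postn*-/- against 59.5, 54.5 and 52.6 CPM in *wt*, which is 0.41 ± 0.11 as log2 fold change with its standard error (edgeR, unadjusted p = 0.00562 and adjusted p = 0.717). *Pik3r2* was at 46.7, 31.2 and 35.2 CPM in *Postn*-/- against 22.7, 30.4 and 26.98 CPM in *wt*, which is 0.50 ± 0.18 as log2 fold change with its standard error (edgeR, unadjusted p = 0.0250). *Grb10* was at 728, 745 and 700.0 CPM in *Postn*-/- against 847, 982 and 949 CPM in *wt*, which is −0.35 ± 0.11 as log2 fold change with its standard error (edgeR, unadjusted p = 0.0153). For each of these 3 genes the genotypes did not overlap, nor did they for *Grb2*, an adaptor that was lower in *Postn*-/- at an unadjusted p of 0.453 (edgeR). These are 4 of the 29 tested genes of the list, beside 13.6% of all tested genes. *Shc1* passed in 15 of 15 alternatives, *Grb10* in 13 and *Pik3r2* in 11, where the highest p was 0.0260, 0.0535 and 0.0982. *Grb10* no longer passed in edgeR without *Postn*-/- replicate 3 (unadjusted p = 0.0535) or *wt* replicate 3 (unadjusted p = 0.0512). *Pik3r2* no longer passed in edgeR without *Postn*-/- replicate 1 (unadjusted p = 0.0982), *wt* replicate 1 (unadjusted p = 0.0715) or *wt* replicate 3 (unadjusted p = 0.0606), or with the replicate number as a block (unadjusted p = 0.0575).

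The most abundant gene of this list per kilobase was *Eif4ebp1*, the translation repressor controlled by mTOR, at a mean of 337 CPM per kilobase, and *Grb10* was the next at 90.8. *Eif4ebp1* had a log2 fold change of 0.11 (95% interval −0.40 to 0.62), of 0.39 without *wt* replicate 2 (unadjusted p = 0.0441, edgeR) and of −0.090 without *wt* replicate 1 (unadjusted p = 0.608, edgeR). Among the 12 carriers, proteases and related receptors 9 were tested and 0 passed in edgeR at either threshold. The most abundant were *Lrp1*, an endocytic receptor, at 20.2 CPM per kilobase and *Stc2*, an inhibitor of the pappalysin proteases that cleave binding proteins, at 19.3. Their log2 fold changes were 0.23 (95% interval −0.22 to 0.67) and −0.44 (−1.15 to 0.27). Over the 15 alternatives *Lrp1* ran from 0.02 to 0.37 and passed the unadjusted threshold in 1, limma with surrogate variables (unadjusted p = 0.0168). *Stc2* ran from −0.75 to 0.0093 and passed in 2, edgeR without *wt* replicate 3 (−0.75, unadjusted p = 0.00423) and edgeR without a filter on low counts (unadjusted p = 0.0452). The protease gene *Pappa* was at 36.5 to 55.1 CPM and *Igfals*, which encodes the partner of serum IGF complexes, at 4.76 to 8.36 CPM, and *Igfbp1* did not pass the filter. Among the 6 genes that act on *Igf2* RNA or neighbour *Igf2* and *Igf2r*, 5 were tested and 0 passed in edgeR at either threshold. *H19*, the imprinted noncoding neighbour of *Igf2*, was at 119 CPM per kilobase with a log2 fold change of 0.38 (95% interval −0.21 to 0.98), and *Igf2bp2*, which encodes a protein that binds *Igf2* RNA rather than IGFs, was at 6.03 with 0.02 (−0.27 to 0.32). Over the alternatives *H19* ran from 0.22 to 0.63, and passed without *Postn*-/- replicate 1 (0.63, unadjusted p = 0.00796, edgeR). *Igf2bp3*, whose product also binds *Igf2* RNA, had a log2 fold change of 0.54 (unadjusted p = 0.102, edgeR) and passed in 3 alternatives, without *wt* replicate 1 (0.90, unadjusted p = 0.00799, edgeR) and in both limma fits. In the adaptor list *Foxo1*, a transcription factor held back by AKT, had a log2 fold change of 0.34 (unadjusted p = 0.0702, edgeR), ran from 0.23 to 0.51 over the alternatives and passed in 5 of them.

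**Figure D4:**
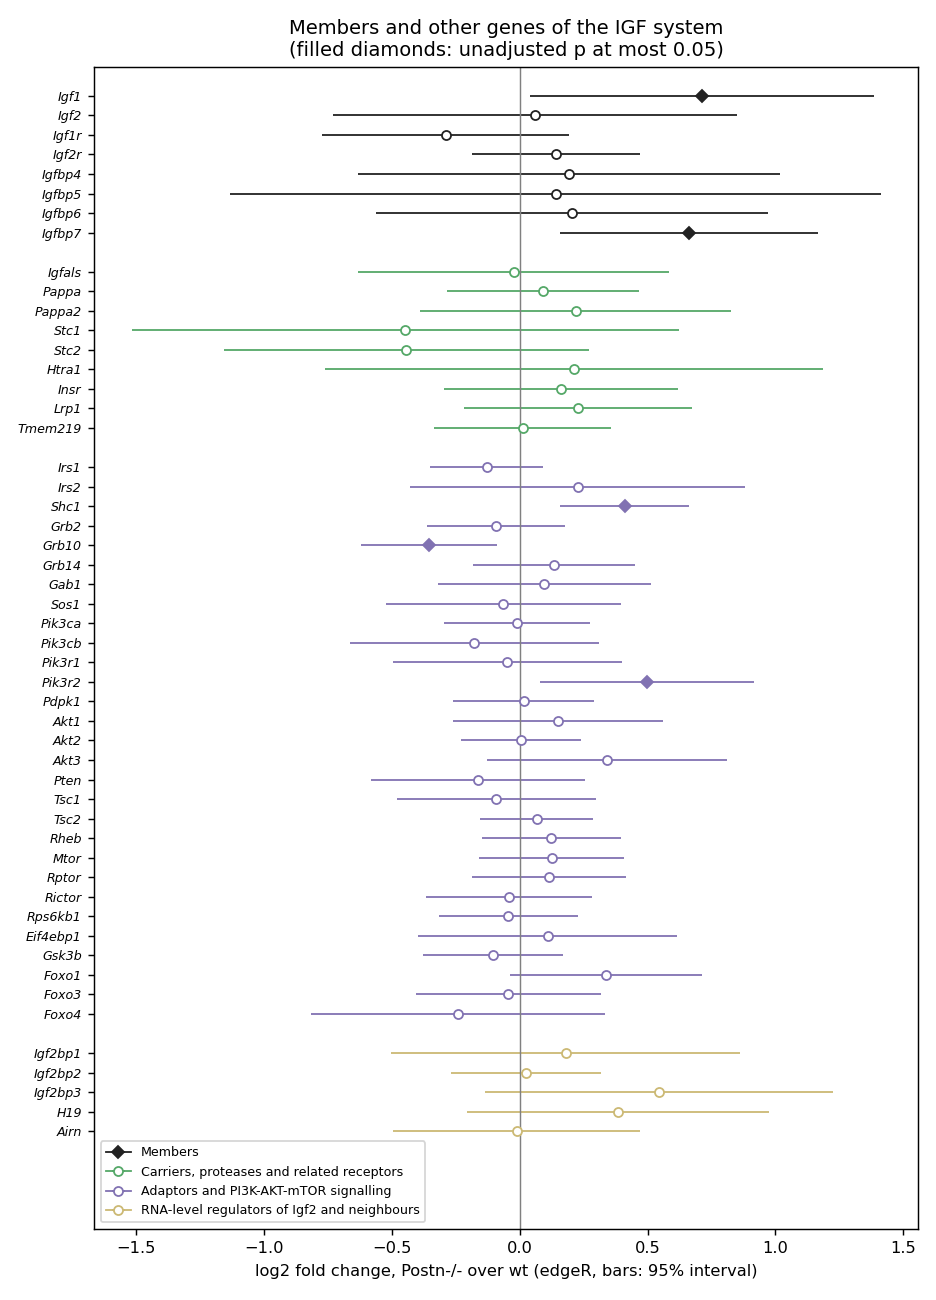
Log2 fold change, *Postn*-/- over *wt*, with its 95% interval from edgeR for the 8 tested members and the 43 tested genes of the 3 other lists; filled diamonds mark an unadjusted p of at most 0.05. The diamonds are *Igf1* (0.71), *Igfbp7* (0.66), *Shc1* (0.41) and *Pik3r2* (0.50) to the right and *Grb10* (−0.35) to the left.

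Markers of other cell types were measured beside the members. Over all tested genes 6.30% passed the unadjusted threshold in edgeR with all samples. With 1 mouse left out this share was 2.98% to 8.71%, and in limma with surrogate variables it was 13.7%. Of 6 macrophage and blood markers, 3 were tested and all 3 had a positive log2 fold change with 0 past the unadjusted threshold in edgeR, while 1 passed without *wt* replicate 1, 1 without *wt* replicate 3 and 1 in limma with surrogate variables. The list's summed level was 12.0 to 19.1 CPM per kilobase in *Postn*-/- and 4.82 to 14.8 in *wt*. *Cd68* was at 13.7, 14.0 and 22.9 CPM in *Postn*-/- against 17.9, 5.29 and 10.97 CPM in *wt*. *Csf1r* was at 1.05 to 1.83 CPM in *Postn*-/- and 1.10 to 1.27 in *wt*. The haemoglobin gene *Hba-a1* was at 0 in 5 of the 6 libraries. A second one, *Hbb-bs*, was counted with 0, 1 and 1 reads in *Postn*-/- and with 1, 2 and 0 reads in *wt*. The part of these cells in the *Igf1* difference was not tested. Of 4 mural and muscle markers, 4 were tested, 3 had a positive log2 fold change (*Rgs5*, *Myh11* and *Des*, median of all 4 at 0.53) and 1 passed, *Rgs5*, at 3.86, 1.22 and 3.15 CPM in *Postn*-/- against 0.961, 0.769 and 1.77 CPM in *wt* (unadjusted p = 0.0347, edgeR). *Rgs5* no longer passed in edgeR without *Postn*-/- replicate 1, *Postn*-/- replicate 3, *wt* replicate 1 or *wt* replicate 2 (unadjusted p = 0.0872 to 0.128). With limma's voomWithQualityWeights on all 6 samples *Rgs5* did not pass either (log2 fold change 0.98, unadjusted p = 0.0788). *Acta2* of the same list was at 52.7, 87.6 and 111 CPM in *Postn*-/- against 67.6, 73.5 and 154 CPM in *wt*, so *Postn*-/- replicate 1, the highest for *Igfbp7*, was the highest for *Rgs5* and the lowest for *Acta2*. The summed level of this list, to which *Acta2* gave the most, was 31.1 to 63.6 CPM per kilobase in *Postn*-/- and 38.6 to 87.4 in *wt*, and that of 4 endothelial markers 0.826 to 1.25 and 0.604 to 1.17. Their part in the *Igfbp7* difference was not tested. The chondrocyte list summed to 8232 to 12050 CPM per kilobase in *Postn*-/- and 7463 to 10850 in *wt*, with 2 of its 12 genes, *Col2a1* and *Col11a2*, higher at the unadjusted threshold. *Col2a1* no longer passed in edgeR without *wt* replicate 3 (unadjusted p = 0.0522), and *Col11a2* without *Postn*-/- replicate 1 or 3 or *wt* replicate 1 or 3 (unadjusted p = 0.0914 to 0.118). The 8 proliferation markers all had a negative log2 fold change with a median of −0.65, and 1, *Ccnb1*, passed (unadjusted p = 0.0467, edgeR). Without *wt* replicate 1, 7 of the 8 were negative with a median of −0.31, *Mcm2* was positive and 0 passed in edgeR. Without *Postn*-/- replicate 2, 6 of the 8 passed with a median of −1.13, beside 7.73% of all genes. Without *wt* replicate 2, 3 passed, beside 8.71%. With other fits of all 6 samples, 7 of the 8 passed with surrogate variables, beside 13.7% of all genes. Without a filter on low counts 6 passed, beside 5.24%. With DESeq2 3 passed and with voomWithQualityWeights 2, beside 6.01% and 9.20%. With upper quartile normalization, the stricter filter or the robust fit 0 passed. *Ccnb1* no longer passed in edgeR without *Postn*-/- replicate 1 or 3 or *wt* replicate 1 or 3 (unadjusted p = 0.0792 to 0.162), with the replicate number as a block (0.0632), with upper quartile normalization (0.0515), with the stricter filter (0.0537) or with the robust fit (0.0597). Of 7 fibroblast and perichondrium markers 6 were tested and 1 passed, *Cthrc1*, lower in *Postn*-/- at 53.4, 85.9 and 61.0 CPM against 98.1, 133 and 113 CPM in *wt* (log2 fold change −0.78, unadjusted p = 0.00406, edgeR). This list summed to 643 to 1271 CPM per kilobase in *Postn*-/- and to 892 to 1113 in *wt*. Of 5 hypertrophic chondrocyte and 4 osteoblast markers all were tested and 0 passed in edgeR at either threshold, with sums of 1934 to 7900 and 181 to 262 CPM per kilobase in *Postn*-/- and of 1877 to 5535 and 170 to 251 in *wt*. Of the hypertrophic markers 1 passed in edgeR without *Postn*-/- replicate 2 and 1 without a filter on low counts. In limma with surrogate variables 1 passed. The list's median log2 fold change was −0.17 with all samples. With 1 mouse left out this median ran from −0.54 without *wt* replicate 1 to 0.77 without *wt* replicate 2, where all 5 were positive. The part of these lists in the members' values was not tested.

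Across the 15 alternatives the log2 fold change of *Igf1* stayed between 0.51 and 1.00 and that of *Igfbp7* between 0.45 and 0.84. *Igf1* passed the unadjusted threshold in 10 of these alternatives and *Igfbp7* in 13, with adjusted p from 0.294 to 0.983 for *Igf1* and from 0.300 to 0.983 for *Igfbp7* over edgeR, DESeq2 and limma. For *Igf2*, *Igf1r*, *Igfbp4*, *Igfbp5* and *Igfbp6* at least 1 alternative turned the sign.

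**Figure D5:**
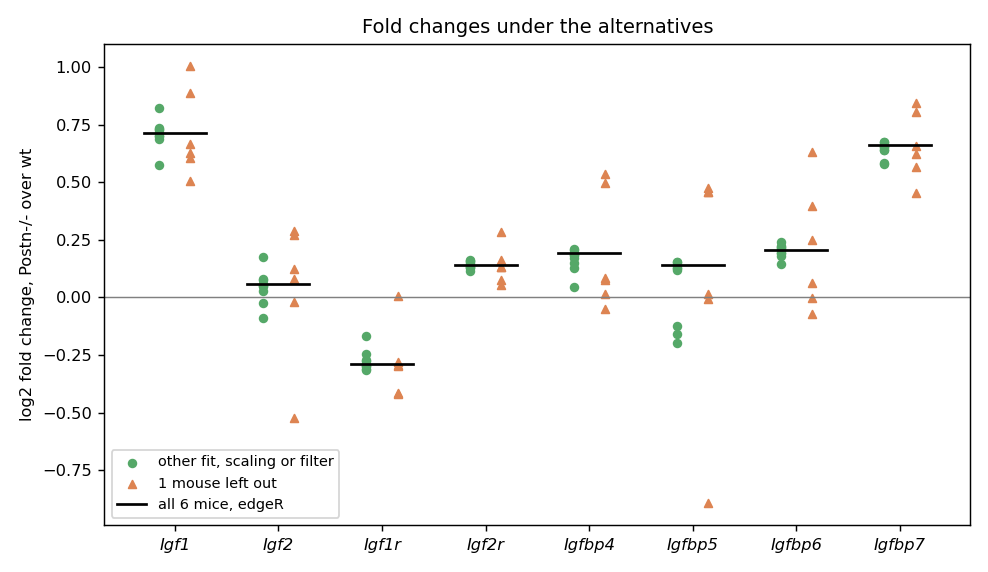
Log2 fold change, *Postn*-/- over *wt*, of the 8 tested members with all 6 mice in edgeR (line), under other fits, scalings and filters (circles) and with 1 mouse left out (triangles). *Igf1* (0.51 to 1.00) and *Igfbp7* (0.45 to 0.84) stay above 0, and *Igfbp5* falls to −0.89 when *Postn*-/- replicate 1 is left out.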

How the data were processed

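RNA-seq libraries of 3 *Postn*-/- and 3 *wt* samples were grouped by the sample labels. According to the labels and the study's methods, the authors used STAR 2.0.4b to place single-end reads of 50 bases on the assemblies of Ensembl release 76, and featureCounts 1.4.5 to count unique alignments. The submitters' processing notes name mm9, but 30702 of the 40340 identifiers matched to GENCODE M21 have identical GRCm38 coordinates. The authors deposited raw counts for each gene with CPM and RPKM, which equal the count scaled to the library total and to exon length, without TMM. The deposited counts entered all tests; the deposited RPKM were only used to check the order of levels.

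After 355 rRNA genes were removed, a gene entered the test if 2 or more samples exceeded 1 CPM. The fit on the 14533 genes left used edgeR 4.0.16 (R 4.3.3) with TMM normalization, the quasi-likelihood test without covariates and Benjamini-Hochberg adjustment. It was also run on simulated counts. These had the same dispersion for every gene and larger fold changes than the members, so that run does not cover changes of the members' size. Standard errors were derived by dividing the size of each fold change (log2) by the root of F. The study's methods give 3 mice of each genotype, and the p-values rest on the spread between these 3 samples of each genotype. In edgeR the spread of each gene is also drawn toward that of the other tested genes, so it is not the gene's own spread alone.

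The alternatives were voomWithQualityWeights of limma 3.58.1, alone or joined by 2 surrogate variables from sva 3.50.0, and DESeq2 1.42.0. They also included other size factors and filters, robust fitting, blocking on replicate number and omission of each sample in turn. The study's methods name voomWithQualityWeights with surrogate variables but not their number, so the study's fit may differ from the one used here. Members and lists were chosen with earlier results of these data known. Named were all members, the genes of the 3 lists with p of at most 0.05, the 2 most abundant per list and, where a value stands beside a member's, markers of other cells; *Pappa*, *Igfals*, *Igfbp1*, *Igf2os*, *Gm49394*, *Polr2b*, *Grb2*, *Igf2bp3*, *Foxo1* and the single marker genes were chosen after their values were seen.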

Additional observations from a re-analysis of the deposited data

How the results depend on the processing

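The adjusted threshold was passed by 0 members in edgeR and in each of the 15 alternatives, and the order of the 10 members by level was the same with upper quartile normalization and with the deposited RPKM. With 1 mouse left out, a check added after the values were seen, *Igf1r*, *Igf1*, *Igfbp2* and *Igfbp3* kept ranks 7 to 10, and between 4 (without *Postn*-/- replicate 3) and 10 of the 10 members kept their rank. At the unadjusted threshold limma's voomWithQualityWeights called 1 member, *Igfbp7*, in place of 2, and leaving out 1 mouse gave between 1 and 3 members. Of the other genes of the system 3 passed in the main test, 5 with voomWithQualityWeights, 6 with its surrogate variables, 5 without a filter on low counts, and between 2 and 4 with 1 mouse left out. These limma fits also called more of all genes, 9.20% and 13.7%. The log2 fold change of *Igf2* turned to −0.024 with surrogate variables and to −0.088 with the replicate block, and ran from −0.52 to 0.29 with 1 mouse left out. That of *Igfbp5* turned to −0.12 with voomWithQualityWeights, −0.20 with surrogate variables and −0.16 with the replicate block, and ran from −0.89 to 0.47. With 1 mouse left out, *Igf1r* ran from −0.42 to 0.0051, *Igfbp4* from −0.050 to 0.53 and *Igfbp6* from −0.072 to 0.63. The cause was not tested.

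Samples that share a replicate number are not stated to be related. Their deviations from the genotype means correlated at 0.082, 0.155 and 0.143 for numbers 1, 2 and 3 across genes, and all 6 samples correlated best with their own number. With the replicate block 1188 of all genes passed the unadjusted threshold in place of 916, 2 members and 3 of the other genes of the system passed it, and 0 members passed after adjustment. With 3 mice in each genotype, an exact permutation test cannot go below p = 0.1.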

Other observations

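The patterns of the members over the 6 samples were compared as Pearson's r of log2 CPM with a prior count of 2, as a description with no test, since genes of one library share its depth and cell makeup. *Igfbp4* and *Igfbp6* were the most alike of the 28 member pairs at r = 0.801, followed by *Igfbp4* and *Igfbp7* at 0.710. *Igf2r* and *Igfbp5* were the least alike at −0.855. Among all tested genes, the 3 most like *Igf1* were *Gm4924* (0.998), *Strip2* (0.994) and *Pla2g10* (0.987). Those most like *Igf2* were *Cep95* (0.976), *Atg4c* (0.969) and *Fbxw9* (0.956), those most like *Igf1r* were *Dld* (0.988), *Mei4* (0.982) and *Eif3c* (0.980), and those most like *Igfbp7* were *Jtb* (0.992), *Tradd* (0.990) and *Mgst1* (0.988). With 6 samples, 48 genes exceeded 0.95 with *Igf1*, 33 with *Igfbp7*, 20 with *Igf1r* and 6 with *Igf2*. The pattern of *Igf1r* rests on *wt* replicate 2, at 41.6 CPM, since the other 5 samples lay within 24.5 to 25.1 CPM.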
